A study of Mus musculus with 9 samples.

Results

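The genes that encode glucose and amino acid transporters, and their relatives in the same solute carrier families, were followed in mouse mammary cells and organoids. They were taken by symbol, as every measured gene of the Slc1, Slc2, Slc3, Slc5, Slc6, Slc7, Slc36, Slc38 and Slc43 families, and came to 80 of 18194 genes on the array. RNA was measured in organoids from yMaSCs, in organoids from MaSCs and in LD cells, as 3 biological replicas per kind with the letters A, B and C. LD cells (labelled Lum) are luminal differentiated mammary cells, sorted from lineage-negative cells as EpCAM-high, CD49f-low and CD61-negative and taken to RNA without culture. Organoids from yMaSCs (yOrg, below yMaSC organoids) descend from such LD cells after lentiviral expression of wild-type YAP under doxycycline control, with the reverse tetracycline transactivator delivered by another lentivirus, and were propagated without doxycycline. Organoids from MaSCs (Org, below MaSC organoids) descend from a sorted population enriched in native mammary stem cells (EpCAM-low, CD49f-high and CD61+) and carry no YAP vector. The methods give, unless otherwise specified, virgin C57BL/6J mice of 8 to 12 weeks as the source of the cells. Both kinds of organoid were kept in Matrigel under a medium with EGF, bFGF, heparin, noggin and R-Spondin1, so that differences from LD cells and differences between cultured and fresh cells cannot be told apart. In RNA of bulk samples, fewer cells of a type and less RNA per cell cannot be told apart either.

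Cells take up sugars and amino acids through membrane carriers. Members of the Slc2 family (the GLUT proteins) let hexoses pass down their gradient, whereas most Slc5 members draw glucose or another solute in with sodium. Slc1 proteins carry glutamate or small neutral amino acids, Slc6 proteins carry neurotransmitters, amino acids and osmolytes with sodium and chloride, and Slc36 and Slc38 proteins carry small neutral amino acids. In the Slc7 family a cationic branch (CAT1, CAT2 and relatives) works alone, and a light-chain branch reaches the membrane bound to a heavy chain, Slc3a1 or Slc3a2. In the mammary gland these carriers are known above all for lactation, when the epithelium takes up glucose for lactose and amino acids for casein.

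The name of the group describes its members only in part. By their known substrates, 41 of the 80 genes carry amino acids or are subunits of such carriers, 13 carry sugars, 18 carry other solutes such as myo-inositol, taurine, creatine, iodide or monoamines, and 8 have no substrate assigned here. These classes were drawn up after the values had been seen and are used as a description only.

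Levels are log2 RMA intensities of 1 probe set per gene, the one with the highest mean over the 9 arrays, and a difference of 1 log2 unit is a doubling. The lower quartile of all probe sets lay between 3.47 and 3.59 on the 9 arrays and the upper quartile between 7.39 and 7.59. Of the 80 genes, 24 had a group mean over the upper quartile in at least 1 group and 14 lay at or under the lower quartile in all 3 groups, where a low signal leaves little to compare. LD cells had 6 of 7 luminal markers at a higher level than both kinds of organoid, whereas 6 of 8 basal and myoepithelial markers were higher in yMaSC organoids and 5 of 8 in MaSC organoids. Transcripts of leukocytes were also present in the LD cells, although the sort used an antibody cocktail against lineage markers. All 10 of 10 leukocyte markers were lower in both kinds of organoid, with a summed level (log2 of the summed intensities) of 7.42 to 7.53 in yMaSC organoids, 7.50 to 7.83 in MaSC organoids and 9.75 to 10.46 in LD cells, and Ptprc, the common leukocyte antigen, lay below the lower quartile in the organoids. The LD array B stood apart by its adipocyte markers, whose summed level was 10.95 there and 5.77 and 5.82 on the other LD arrays, and by endothelial markers at 8.90 against 6.51 and 6.63. Its fibroblast markers were also higher (12.47, against 10.5 and 11.09), and its alveolar and milk markers (13.76, against 15.8 and 15.87) and markers of dividing cells (7.87, against 10.33 and 9.79) were lower. Counts are therefore also given without that array.

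Compared with LD cells, both kinds of organoid had higher levels of Slc5a3, Slc6a6, Slc6a8, Slc43a3, Slc6a2, Slc6a15, Slc1a2, Slc2a8, Slc38a9 and Slc38a7. They had lower levels of Slc7a2, Slc7a1, Slc5a1, Slc2a3, Slc1a1, Slc1a5, Slc38a1, Slc38a2, Slc43a2, Slc5a5, Slc5a6 and Slc7a11. In yMaSC organoids 11 of the 80 genes (13.8%) were higher and 16 (20.0%) were lower than in LD cells, and in MaSC organoids 11 (13.8%) were higher and 15 (18.8%) were lower (limma, p adjusted by Benjamini-Hochberg over the whole table, under 0.05). Among all genes tested, the shares called were 21.6% higher and 14.3% lower in yMaSC organoids, and 22.1% higher and 15.2% lower in MaSC organoids. The share of transporter genes called higher lay below that of all genes and the share called lower lay above it, and this was not tested. Their median log2 difference was -0.05 in both comparisons, beside -0.01 in yMaSC organoids and -0.02 in MaSC organoids over all genes. Of the 80 genes 10 were higher in both kinds of organoid, 12 were lower in both, 9 were called in 1 comparison only and 0 were called in opposite directions. A call in 1 comparison only does not show that the kinds of organoid differ, and 0 of the 80 genes passed the test between them. Both comparisons share the 3 LD arrays. The groups did not overlap for 31 transporter genes in yMaSC organoids and for 33 in MaSC organoids, against 44.9% of all genes in yMaSC organoids and 47.9% in MaSC organoids.

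The split between higher and lower depended on the scaling and changed most with a common median. The median gene was at 6.34 in yMaSC organoids, 6.33 in MaSC organoids and 6.09 in LD cells, so that bringing all arrays to a common median moves the differences by -0.26 in yMaSC organoids and -0.25 in MaSC organoids on the log2 scale. With a common median, 8 transporter genes were higher and 36 lower in yMaSC organoids, and 7 were higher and 37 lower in MaSC organoids. With cyclic loess 9 were higher and 12 lower in yMaSC organoids, and 8 were higher and 15 lower in MaSC organoids. Quantile normalization gave 8 higher and 14 lower in yMaSC organoids, and 8 higher and 15 lower in MaSC organoids. Calls of differences about as small as the shift by the common median depended on the scaling. So did calls of some larger differences, such as that of Slc2a8 (0.73 in yMaSC organoids and 0.78 in MaSC organoids). Without the LD array B, 11 were higher and 10 lower in yMaSC organoids, and 10 were higher and 13 lower in MaSC organoids. A common median lowers the differences of all genes alike. Shares of all genes called were not counted under these other settings, here or below, so their counts have no background beside them.

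**Figure D1:**
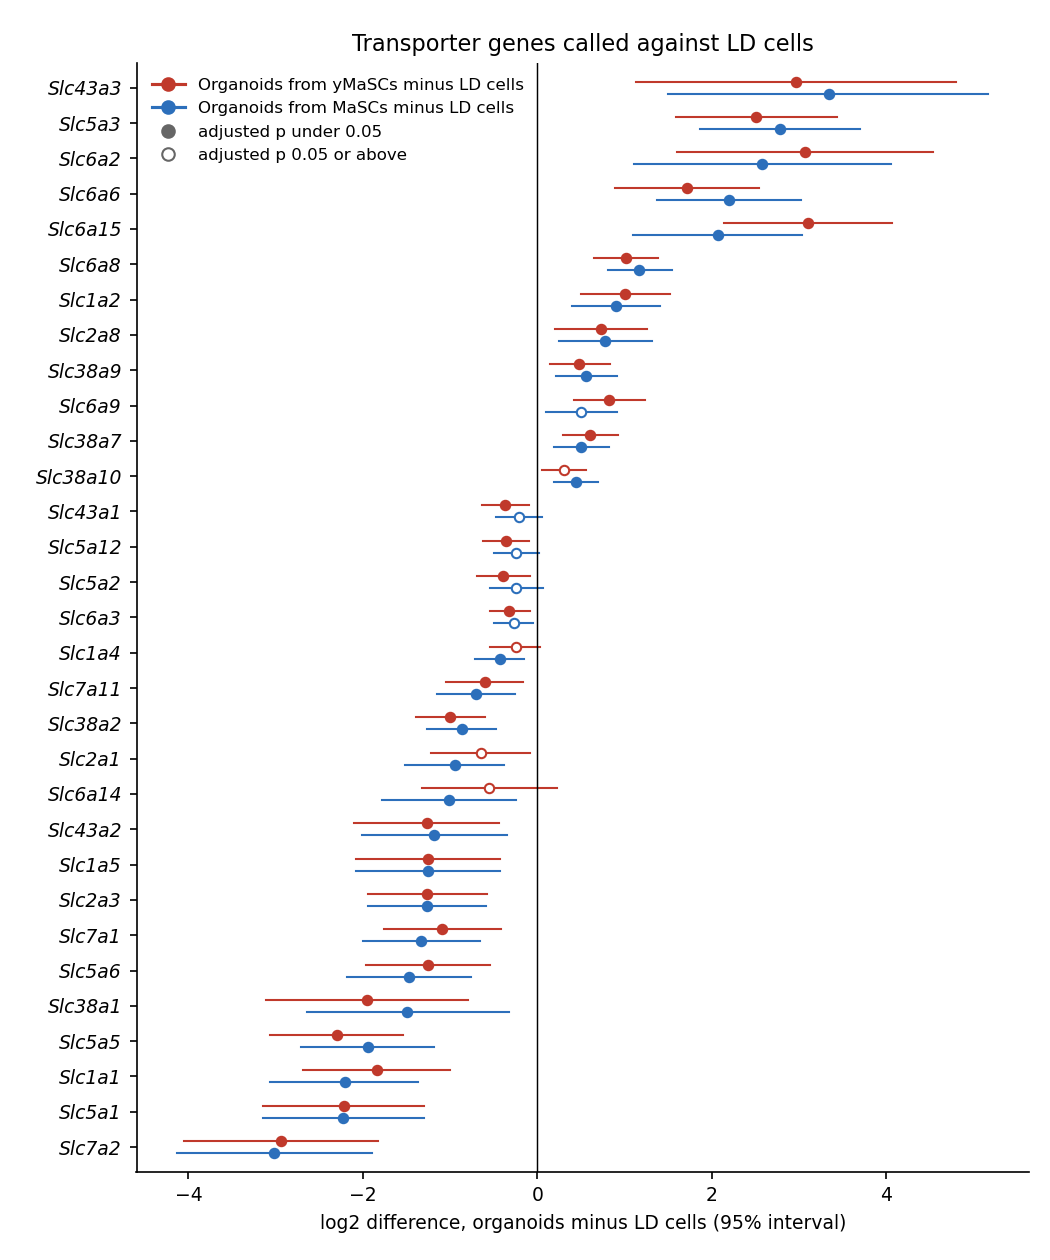
Log2 difference from LD cells (x axis, organoids minus LD cells, with the 95% interval) of the 31 transporter genes called in at least 1 comparison, for yMaSC organoids (upper, red) and MaSC organoids (lower, blue); filled points have an adjusted p under 0.05. Slc43a3 stands highest and Slc7a2 lowest in MaSC organoids, at 3.34 and -3.02, and the points of both comparisons lie on the same side of 0 for every gene shown.

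Of the 18 genes that carry solutes other than sugars and amino acids, 5 were higher and 4 lower in yMaSC organoids, and 5 were higher and 2 lower in MaSC organoids. Among all genes 21.6% were higher and 14.3% lower in yMaSC organoids, and 22.1% and 15.2% in MaSC organoids. The same 5 of the 18 genes were higher in both and kept their call under each of the 3 other scalings. With a common median 9 of the 18 were lower in yMaSC organoids and 10 in MaSC organoids, and no share of all genes was counted for that scaling. Slc5a3 (SMIT1), the sodium-coupled carrier of the osmolyte myo-inositol, had levels of 11.66, 11.59 and 10.32 in yMaSC organoids (letters A, B and C) and 12.15, 10.85 and 11.37 in MaSC organoids, against 8.79, 8.52 and 8.72 in LD cells. Every organoid array exceeded every LD array, and the differences were 2.51 ± 0.40 in yMaSC organoids (5.71-fold, limma adjusted p = 0.0014) and 2.78 ± 0.40 in MaSC organoids (6.87-fold, adjusted p = 0.000771); here and below ± after a difference is its standard error, with 3 arrays per group. All 3 probe sets of Slc5a3 moved the same way, by 0.96 to 2.51 in yMaSC organoids and by 1.10 to 2.78 in MaSC organoids.

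Slc6a6 (TauT), which carries taurine and β-alanine, lay at 11.05, 10.72 and 9.68 in yMaSC organoids and at 11.19, 11.01 and 10.70 in MaSC organoids, against 9.22, 8.24 and 8.85 in LD cells. The groups did not overlap, and Slc6a6 rose by 1.71 ± 0.36 in yMaSC organoids (limma adjusted p = 0.0059) and by 2.20 ± 0.36 in MaSC organoids (adjusted p = 0.00156). Slc6a8, the creatine transporter, was tightly spread within groups, at 9.53 to 9.94 in yMaSC organoids, 9.57 to 10.01 in MaSC organoids and 8.55 to 8.83 in LD cells. Its level was 2.02-fold higher in yMaSC organoids (adjusted p = 0.0013) and 2.26-fold higher in MaSC organoids (adjusted p = 0.000559), and the second was the lowest adjusted p of any transporter gene in that comparison. The other probe set of Slc6a8 was higher by only 0.53 log2 in yMaSC organoids and 0.45 in MaSC organoids. Of the creatine genes Gatm, Gamt, Ckb, Ckm and Ckmt1, 0 of 5 were higher and 1 was lower, Gatm, which encodes the first enzyme of creatine synthesis (-1.07 in yMaSC organoids and -1.35 in MaSC organoids).

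Slc43a3, a carrier of purine nucleobases related to the amino acid carriers Slc43a1 and Slc43a2, had the largest increase in MaSC organoids but also a wide spread. It measured 8.04, 9.58 and 7.08 in yMaSC organoids and 8.35, 9.71 and 7.75 in MaSC organoids, against 4.51, 6.72 and 4.57 in LD cells. The B array was the highest of its group in all 3 groups, and the groups nevertheless did not overlap. The difference was 2.97 ± 0.81 in yMaSC organoids (limma adjusted p = 0.0193) and 3.34 ± 0.81 in MaSC organoids (adjusted p = 0.0108). In yMaSC organoids the call of Slc43a3 was lost without their own array B (2.29, adjusted p = 0.0686), without LD array A (2.59, adjusted p = 0.068) or without LD array C (2.62, adjusted p = 0.0677).

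Slc6a2, the noradrenaline transporter of sympathetic nerve, and Slc6a15 (B0AT2), a carrier of branched-chain amino acids and proline best known from the brain, are both known from neurons. Slc6a2 lay at 7.72, 6.35 and 7.81 in yMaSC organoids and 7.06, 5.33 and 8.03 in MaSC organoids, against 3.82, 4.40 and 4.46 in LD cells, so that LD cells were close to the lower quartile and all organoid arrays were above them. The differences were 3.07 ± 0.65 (limma adjusted p = 0.00569) in yMaSC organoids and 2.58 ± 0.65 (adjusted p = 0.0128) in MaSC organoids. They rested on 1 of 4 probe sets. The other 3 moved by only 0.10 to 0.51 in yMaSC organoids and by -0.01 to 0.08 in MaSC organoids, and with the mean of all 4 the call in MaSC organoids was lost.

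Slc6a15 was measured by a single probe set, at 7.19, 7.72 and 8.61 in yMaSC organoids and 6.76, 7.55 and 6.11 in MaSC organoids, against 4.79, 4.43 and 5.0 in LD cells. It rose 8.57-fold in yMaSC organoids (3.10 ± 0.42, limma adjusted p = 0.000587) and 4.19-fold in MaSC organoids (2.07 ± 0.42, adjusted p = 0.0047). Of 7 listed markers of neurons and glia (Rbfox3, Syt1, Slc17a7, Gad1, Gad2, Gfap and Aqp4), 0 were higher in either kind of organoid. In yMaSC organoids 0 were lower and in MaSC organoids 1 was lower. The summed level of the 7 markers was 7.30 to 7.54 in yMaSC organoids, 7.28 to 7.52 in MaSC organoids and 7.58 to 7.79 in LD cells. Of 4 markers of Schwann cells and nerve, Sox10, which basal mammary cells are also known to express, was higher by 2.20 in yMaSC organoids and 2.35 in MaSC organoids. S100b was higher in MaSC organoids (0.57, adjusted p = 0.0424) and not called in yMaSC organoids (0.37, adjusted p = 0.172). Tubb3 and Snap25 lay under the lower quartile in all groups, and Tubb3 was called lower in both comparisons there (-0.29 in each). The summed level of these 4 markers was 11.22 to 11.53 in yMaSC organoids, 11.31 to 11.65 in MaSC organoids and 8.94 to 9.52 in LD cells.

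**Figure D2:**
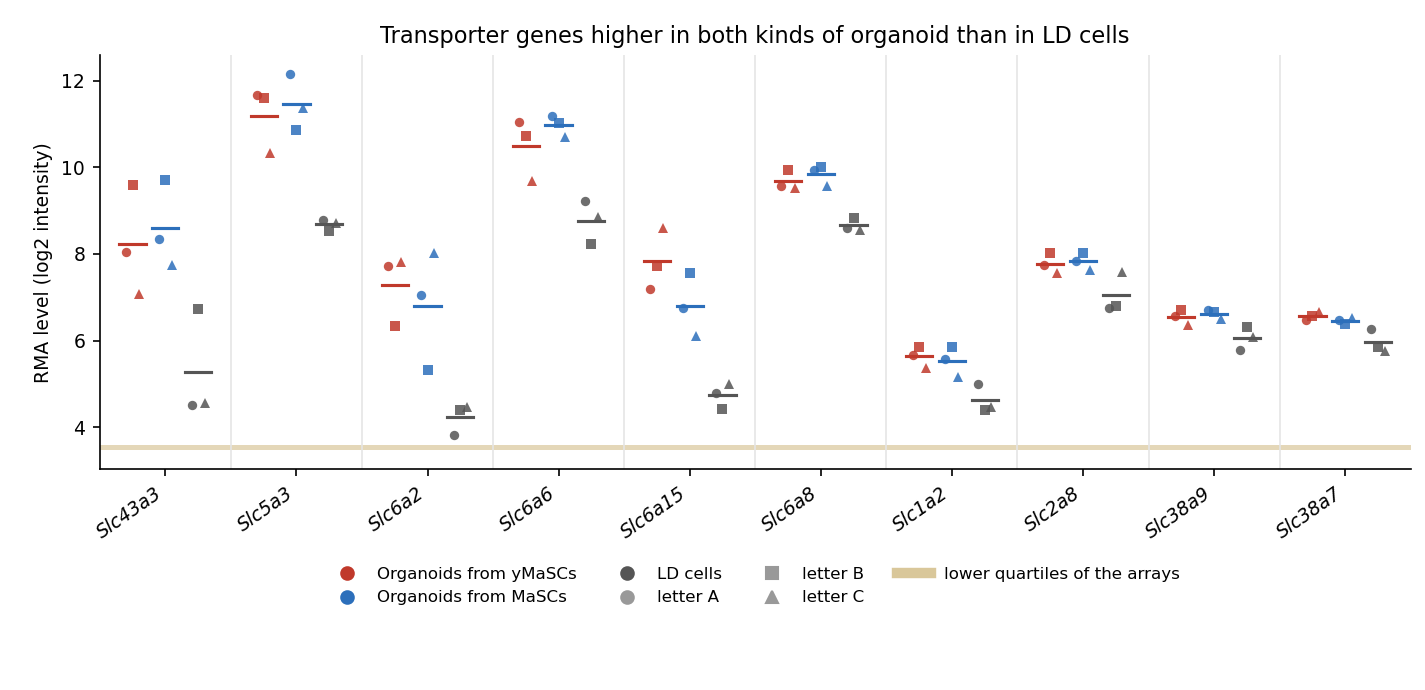
RMA level (y axis, log2 intensity) on each of the 9 arrays of the 10 transporter genes that were higher in both kinds of organoid than in LD cells, with yMaSC organoids in red, MaSC organoids in blue and LD cells in grey; marker shapes are the letters A, B and C, short lines are group means and the band is the range of the arrays' lower quartiles. The first 6 genes differ by at least 1.02 log2, and the last 3 (Slc2a8, Slc38a9 and Slc38a7) by less than 0.8.

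The remaining increases were smaller. Slc1a2 (GLT-1), a glutamate transporter, lay at 5.67, 5.86 and 5.38 in yMaSC organoids and 5.57, 5.85 and 5.17 in MaSC organoids, against 5.0, 4.41 and 4.47 in LD cells. It was higher by 1.01 in yMaSC organoids (limma adjusted p = 0.00706) and by 0.90 in MaSC organoids (adjusted p = 0.0117). It rested on the brightest of 5 probe sets, since the other 4 differed by -0.06 to 0.17 in yMaSC organoids and by -0.09 to 0.02 in MaSC organoids, and with the mean of all 5 the call was lost in both comparisons. Slc38a9, the lysosomal arginine sensor upstream of mTORC1, rose by 0.48 in yMaSC organoids (adjusted p = 0.0355) and by 0.56 in MaSC organoids (adjusted p = 0.0184), and its 7 probe sets differed by 0.17 to 1.72 in yMaSC organoids and by 0.0 to 2.01 in MaSC organoids. Slc38a7, a lysosomal exporter of glutamine and asparagine, rose by 0.60 in yMaSC organoids (adjusted p = 0.00868) and by 0.50 in MaSC organoids (adjusted p = 0.0195). Slc2a8 (GLUT8), a glucose transporter of intracellular membranes, rose by 0.73 in yMaSC organoids (adjusted p = 0.0379) and by 0.78 in MaSC organoids (adjusted p = 0.0286), with LD array C at 7.59 inside the organoids' range of 7.56 to 8.03. For these 3 genes a common median ended the call in both comparisons, and leaving out single arrays ended their calls too, except that of Slc38a7 in yMaSC organoids. Slc2a8, for example, reached only an adjusted p of 0.0976 in MaSC organoids without their array B and 0.0924 without LD array A. Slc38a9 reached 0.122 in yMaSC organoids without their array B, and Slc38a7 reached 0.061 in MaSC organoids without LD array C. Slc6a9 (GlyT1), a glycine transporter, was called in yMaSC organoids (0.82, adjusted p = 0.0063) and narrowly missed the threshold in MaSC organoids (0.50, adjusted p = 0.0528). There it passed with the letter as a replicate block over all arrays (adjusted p = 0.012), among genes above the median level (0.041), and without array B of MaSC organoids (0.63, adjusted p = 0.0354) or LD array A (0.66, adjusted p = 0.0186). Slc38a10, with no substrate assigned here, was called in MaSC organoids alone (0.31 and an adjusted p of 0.0625 in yMaSC organoids, beside 0.44 and 0.0133 in MaSC organoids), though in yMaSC organoids it passed without their array C or LD array C. With the mean of all probe sets the call of Slc38a10 in MaSC organoids was lost (0.24, adjusted p = 0.101). Its 7 probe sets differed by -0.46 to 0.65 in yMaSC organoids and by -0.31 to 0.54 in MaSC organoids.

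The largest decrease was in the cationic branch of Slc7. Slc7a2 (CAT2), which carries arginine, lysine and ornithine, had levels of 7.01, 7.07 and 8.4 in yMaSC organoids and 6.96, 6.91 and 8.38 in MaSC organoids, against 10.91, 10.36 and 10.03 in LD cells. Even the C organoids, the highest, stayed below every LD array. Slc7a2 fell to 0.13 of the LD level in yMaSC organoids (-2.94 ± 0.49, limma adjusted p = 0.00169) and to 0.124 in MaSC organoids (-3.02 ± 0.49, adjusted p = 0.0014), and all 4 of its probe sets were lower (-1.92 to -3.38 in yMaSC organoids and -1.78 to -3.32 in MaSC organoids).

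Slc7a1 (CAT1), the widely used arginine and lysine carrier, lay at 8.94, 9.05 and 9.84 in yMaSC organoids and 8.81, 8.94 and 9.35 in MaSC organoids, against 10.48, 10.74 and 9.87 in LD cells. The difference was -1.09 ± 0.29 in yMaSC organoids (limma adjusted p = 0.0187) and -1.33 ± 0.29 in MaSC organoids (adjusted p = 0.00689), and the C array of yMaSC organoids came close to the C array of LD cells. In yMaSC organoids the call was lost when either A or B of that group or A or B of LD cells was left out (adjusted p = 0.0697, 0.0699, 0.0582 and 0.0595, with differences of -0.90 to -1.03). The other 3 genes of the branch, Slc7a3, Slc7a4 and Slc7a14, were not called. Arg1 and Arg2, the arginases, were lower. Arg1 differed by -2.30 log2 in yMaSC organoids and -3.92 in MaSC organoids and Arg2 by -1.96 in yMaSC organoids and -2.16 in MaSC organoids. Odc1, which makes polyamines from ornithine, differed by -1.93 in yMaSC organoids and -2.11 in MaSC organoids. Of the 10 genes listed for the use of tryptophan, arginine and taurine, 5 were lower in both comparisons, and 0 in yMaSC organoids and 2 (Asl and Csad) in MaSC organoids were higher, beside 14.3% of all genes called lower in yMaSC organoids and 15.2% in MaSC organoids. With a common median, cyclic loess or quantile normalization, or without LD array B, 0 of the 10 were higher in MaSC organoids.

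**Figure D3:**
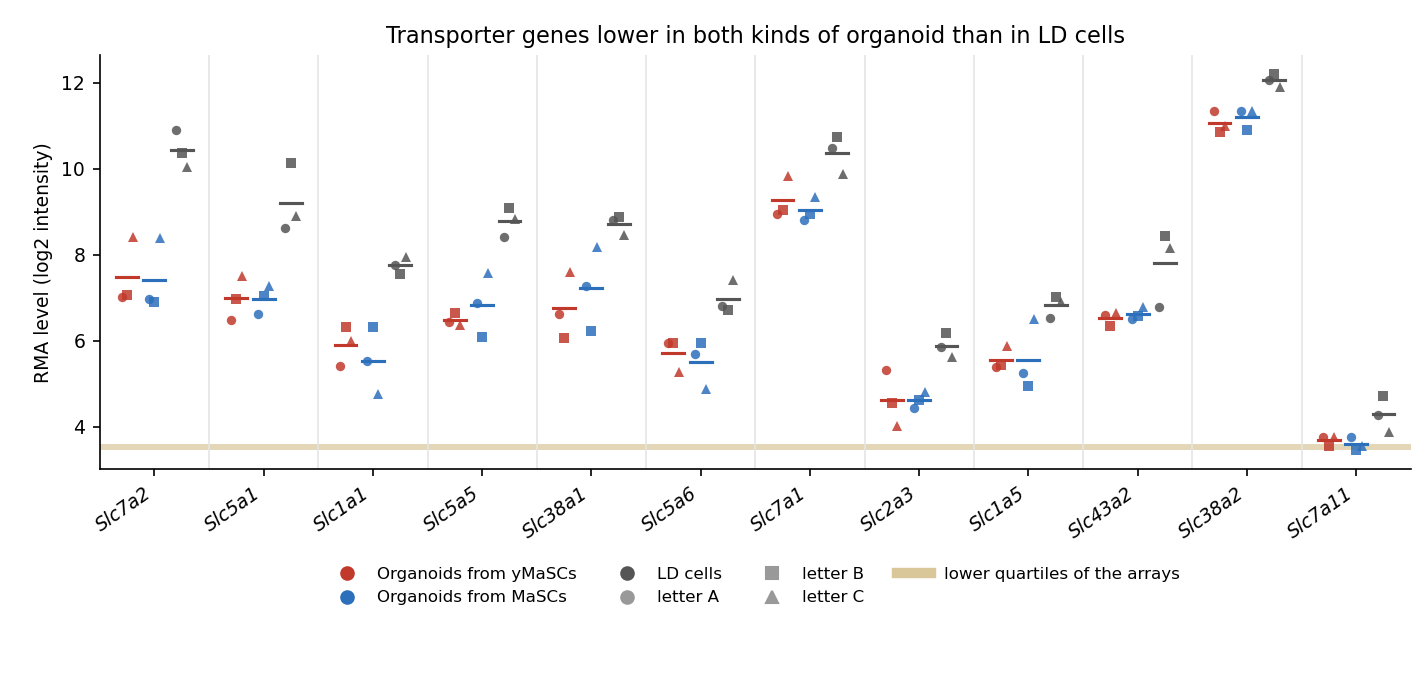
RMA level (y axis, log2 intensity) on each of the 9 arrays of the 12 transporter genes that were lower in both kinds of organoid than in LD cells, with yMaSC organoids in red, MaSC organoids in blue and LD cells in grey; marker shapes are the letters, short lines are group means and the band is the range of the arrays' lower quartiles. No organoid array reaches the lowest LD array in any of the 12 genes, and Slc7a11 lies close to the lower quartile in the organoids.

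Among the glucose carriers, Slc5a1 and Slc2a3 were lower in both kinds of organoid. Slc5a1 (SGLT1), which takes up glucose with sodium, lay at 6.48, 6.97 and 7.51 in yMaSC organoids and 6.61, 7.05 and 7.28 in MaSC organoids, against 8.61, 10.12 and 8.89 in LD cells. It was lower by 2.22 ± 0.41 in yMaSC organoids (limma adjusted p = 0.00275) and by 2.23 ± 0.41 in MaSC organoids (adjusted p = 0.00257), and its other probe set was lower as well, by 2.47 in yMaSC organoids and 2.41 in MaSC organoids. Slc2a3 (GLUT3), known from neurons, leukocytes and other cells with a high glucose demand, had low levels of 5.31, 4.55 and 4.02 in yMaSC organoids and 4.43, 4.62 and 4.80 in MaSC organoids, against 5.86, 6.18 and 5.61 in LD cells. It was lower by 1.26 ± 0.30 in yMaSC organoids (adjusted p = 0.0102) and by 1.27 ± 0.30 in MaSC organoids (adjusted p = 0.00947), and the other 3 of its probe sets differed by -0.03 to -0.61 in yMaSC organoids and by -0.09 to -0.86 in MaSC organoids. Ptprc fell beside it, to group means of 2.83 in both kinds of organoid, against 8.53 in LD cells. The part of leukocyte RNA in the decrease of Slc2a3, or of the other genes that were lower, was not tested.

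Slc2a1 (GLUT1), the main glucose carrier of the mammary epithelium, was at high levels throughout, at 11.48, 11.29 and 12.08 in yMaSC organoids, 11.43, 11.25 and 11.28 in MaSC organoids and 12.08, 12.76 and 11.97 in LD cells. It fell in MaSC organoids (-0.95 ± 0.25, limma adjusted p = 0.0157), whose arrays all lay below LD cells. In yMaSC organoids the C array reached the LD range, and the difference of -0.65 ± 0.25 missed the threshold (adjusted p = 0.0724); without that array it was -0.88 and passed (adjusted p = 0.0182). In MaSC organoids leaving out array B brought the adjusted p to 0.0516. The 3 probe sets of Slc2a1 differed from LD cells by -0.49 to -0.65 in yMaSC organoids and by -0.86 to -0.95 in MaSC organoids. Slc2a4 (GLUT4), the insulin-regulated carrier of fat and muscle, gave no call, at 6.86, 6.87 and 7.27 in yMaSC organoids, 7.0, 6.43 and 7.79 in MaSC organoids and 6.16, 6.51 and 6.69 in LD cells (0.55 and an adjusted p of 0.214 in yMaSC organoids, 0.62 and 0.158 in MaSC organoids). Its other probe set was higher by 1.01 in yMaSC organoids and 1.06 in MaSC organoids, and in MaSC organoids the gene was called without their array B (0.94, adjusted p = 0.0319).

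Slc5a9 (SGLT4), a sodium-coupled carrier of mannose and other hexoses, was called or not by the choice of probe set. Its brightest probe set gave no call (0.20 in yMaSC organoids, limma adjusted p = 0.649, and 0.30 in MaSC organoids, adjusted p = 0.47). The other 3 probe sets were higher by 1.39, 2.12 and 1.98 in yMaSC organoids and by 1.32, 2.17 and 1.82 in MaSC organoids, and with the mean of all 4 probe sets the gene was higher by 1.42 in yMaSC organoids (adjusted p = 0.0137) and by 1.40 in MaSC organoids (adjusted p = 0.0141).

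Several carriers of glutamate and glutamine were lower too. Slc1a1 (EAAC1), an epithelial and neuronal carrier of glutamate, aspartate and cysteine, had levels of 5.41, 6.31 and 5.99 in yMaSC organoids and 5.52, 6.32 and 4.76 in MaSC organoids, against 7.76, 7.54 and 7.94 in LD cells. No organoid array came within 1 log2 unit of an LD array, and all 3 probe sets were lower, by 1.84 to 3.0 in yMaSC organoids (limma adjusted p = 0.00459 for the brightest) and by 2.21 to 3.35 in MaSC organoids (adjusted p = 0.00169). Slc1a5 (ASCT2), the glutamine carrier of many growing cells, lay at 5.39, 5.43 and 5.87 in yMaSC organoids and 5.25, 4.94 and 6.5 in MaSC organoids, against 6.53, 7.01 and 6.91 in LD cells. It was lower by 1.25 ± 0.36 in yMaSC organoids (adjusted p = 0.0255) and as much in MaSC organoids (adjusted p = 0.0247), while its other probe set differed by only -0.16 in yMaSC organoids and -0.18 in MaSC organoids. Its call was lost in each comparison without the A or the B array of the organoids or the B or the C array of LD cells, with adjusted p values of 0.0688 to 0.0872.

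Slc38a2 (SNAT2), a system A carrier of small neutral amino acids whose transcript is known to rise when amino acids are short, was at a high level and fell with little spread. Its levels were 11.34, 10.85 and 10.98 in yMaSC organoids and 11.34, 10.89 and 11.34 in MaSC organoids, against 12.07, 12.20 and 11.89 in LD cells. The differences were -1.0 ± 0.17 in yMaSC organoids (limma adjusted p = 0.00217) and -0.86 ± 0.17 in MaSC organoids (adjusted p = 0.00434). Slc38a1 (SNAT1), its close relative, was lower by 1.95 ± 0.51 in yMaSC organoids (adjusted p = 0.0155) and by 1.49 ± 0.51 in MaSC organoids (adjusted p = 0.047). It was more variable, at 6.61, 6.06 and 7.60 in yMaSC organoids and 7.27, 6.22 and 8.18 in MaSC organoids, against 8.81, 8.87 and 8.45 in LD cells. In MaSC organoids Slc38a1 lost its call when any 1 of 6 arrays was left out (all 3 LD arrays, the A and B arrays of MaSC organoids and the A array of yMaSC organoids, adjusted p = 0.0664 to 0.143, difference -0.98 without array B of MaSC organoids), and in yMaSC organoids without their array B (-1.60, adjusted p = 0.0604). Slc1a4 (ASCT1), for alanine, serine and cysteine, was called lower in MaSC organoids alone with the deposited scaling (-0.25 and an adjusted p of 0.154 in yMaSC organoids, beside -0.43 and 0.0241 in MaSC organoids). In yMaSC organoids it was called lower with a common median (-0.51, adjusted p = 0.0161), cyclic loess (-0.49, adjusted p = 0.0158) or quantile normalization (-0.51, adjusted p = 0.011). The call in MaSC organoids was lost without their array C (-0.35, adjusted p = 0.0827) or LD array A (-0.32, adjusted p = 0.0592). It was also lost with the mean of all probe sets (-0.29, adjusted p = 0.176).

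Of the genes that use glutamine and glutamate, 1 of 8 was higher and 4 were lower in yMaSC organoids, and 1 was higher and 3 were lower in MaSC organoids. The shares of all genes were 21.6% higher and 14.3% lower in yMaSC organoids, and 22.1% and 15.2% in MaSC organoids. Prodh (proline dehydrogenase) was lower by 1.59 in yMaSC organoids and 1.88 in MaSC organoids, and Got1 (cytosolic aspartate aminotransferase) by 1.77 in yMaSC organoids and 1.76 in MaSC organoids. Oat (ornithine aminotransferase) was higher by 1.14 in yMaSC organoids and 1.13 in MaSC organoids.

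Slc43a2 (LAT4), a uniporter of large neutral amino acids, lay at 6.59, 6.35 and 6.64 in yMaSC organoids and 6.5, 6.57 and 6.78 in MaSC organoids, against 6.79, 8.44 and 8.16 in LD cells. LD array A was barely above the organoids while the other LD arrays stood well above them (-1.27 ± 0.37 in yMaSC organoids, limma adjusted p = 0.0245, and -1.18 ± 0.37 in MaSC organoids, adjusted p = 0.0323). In yMaSC organoids the call was lost without LD array B (-0.95) or C (-1.09) or their own array A (-1.30) or B (-1.18), with adjusted p values of 0.0584 to 0.083. In MaSC organoids it was lost without LD array B (-0.86) or C (-1.0) or any of their own arrays (-1.12 to -1.26), with adjusted p values of 0.0541 to 0.105. Slc43a1 (LAT3), a relative with the same kind of substrate, lay at 4.32, 4.27 and 4.29 in yMaSC organoids and at 4.45 on each array of MaSC organoids, against 4.90, 4.49 and 4.59 in LD cells. It was called lower in yMaSC organoids alone (-0.37, adjusted p = 0.0351, beside -0.21 and 0.191 in MaSC organoids), and the call was lost without any 1 of the 6 organoid arrays or LD array A (adjusted p = 0.0523 to 0.098).

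Other decreases lay outside sugars and amino acids. Slc5a5 (NIS), the sodium iodide symporter of thyroid and lactating mammary gland, lay at 6.43, 6.65 and 6.36 in yMaSC organoids and 6.87, 6.08 and 7.57 in MaSC organoids, against 8.42, 9.09 and 8.84 in LD cells. It fell to 0.203 of the LD level in yMaSC organoids (-2.30 ± 0.34, limma adjusted p = 0.00084) and to 0.260 in MaSC organoids (-1.94 ± 0.34, adjusted p = 0.00197). Slc5a6 (SMVT), which carries the vitamins biotin and pantothenate, measured 5.94, 5.95 and 5.27 in yMaSC organoids and 5.69, 5.94 and 4.88 in MaSC organoids, against 6.81, 6.71 and 7.40 in LD cells (-1.25 ± 0.31 in yMaSC organoids, adjusted p = 0.013, and -1.47 ± 0.31 in MaSC organoids, adjusted p = 0.00577). Slc5a1, Slc5a5 and Slc5a6 kept their calls in both comparisons under every alternative that measured them and did not restrict the genes by level.

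The 3 other decreases called in yMaSC organoids alone were Slc5a2 (SGLT2, a glucose carrier known from the kidney), Slc5a12 (a monocarboxylate carrier) and Slc6a3 (the dopamine transporter), at -0.32 to -0.39 (limma adjusted p = 0.0336 to 0.0498), in genes whose means were at most 5.48. Slc5a12 lay under the lower quartile in all groups, and each of the 3 lost its call when single arrays were left out. Slc6a14 (ATB0,+), an epithelial carrier of neutral and cationic amino acids, was lower in MaSC organoids (-1.01, adjusted p = 0.0445) and gave no call in yMaSC organoids (-0.55, adjusted p = 0.243). Its groups overlapped, at 5.03, 5.07 and 5.99 in yMaSC organoids, 4.67, 4.73 and 5.33 in MaSC organoids and 6.09, 5.33 and 6.33 in LD cells, and leaving out array A or B of either kind of organoid or array A or C of LD cells ended the call, with adjusted p values of 0.0527 to 0.14.

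Slc7a11 (xCT), which exchanges cystine for glutamate and is a known target of the stress factors ATF4 and NRF2, was near the lower quartile in the organoids, at 3.75, 3.56 and 3.75 in yMaSC organoids and 3.75, 3.45 and 3.56 in MaSC organoids, against 4.28, 4.71 and 3.88 in LD cells. The differences were -0.60 in yMaSC organoids (limma adjusted p = 0.0398) and -0.70 in MaSC organoids (adjusted p = 0.0203). In yMaSC organoids the call was lost without any of the arrays but LD array C (adjusted p = 0.0534 to 0.123), and in MaSC organoids without their array B or C (adjusted p = 0.0723 and 0.053). Among genes of cystine and glutathione use, 4 of 10 were higher and 2 lower in each comparison. Of all genes 21.6% were higher and 14.3% lower in yMaSC organoids, and 22.1% and 15.2% in MaSC organoids. Nqo1, an NRF2 target, was higher by 3.21 in yMaSC organoids and 3.31 in MaSC organoids, and Cth, which makes cysteine, by 1.75 in yMaSC organoids and 1.58 in MaSC organoids. Gclc, of the first step of glutathione synthesis, was lower by 1.60 in yMaSC organoids and 1.66 in MaSC organoids.

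Promoter windows of the transporter genes were searched for short motifs, because ATF4, the E-box factors of the MiT and Myc families, HIF1, NRF2 and TEAD, the DNA-binding partner of YAP, are known regulators of carriers. A RefSeq window (GRCm38.p6, 300 bases around a transcription start) was given for 58 of the 80 genes, among them 5 of those higher and 8 of those lower in both kinds of organoid. The ATF4 composite TGATGNAA, read on both strands, was in the windows of 4 of the 58 genes (6.90%) and in 4.51% of 27025 genes. The E-box CACGTG was in 10 (17.2%, against 8.09%), the HIF core ACGTG, which every such E-box contains, in 20 (34.5%, against 21.8%), the TEAD core GGAATG in 11 (19.0%, against 16.6%) and the antioxidant response motif TGANNNNGC in 31 (53.4%, against 45.0%). The palindromic glucocorticoid receptor motif was in 0 of 58 and in 0.0518% of all genes. These 4 windows hold a motif in a gene that was higher (Slc38a7 and Slc1a2) or lower (Slc5a1 and Slc7a11) in both kinds of organoid, written 5′ to 3′ on the gene's strand with the motif in capitals: the ATF4 composite in both orientations in Slc7a11, the E-box in Slc38a7 and Slc5a1, and the TEAD core in Slc1a2, where it reads as its reverse complement.
Slc7a11 (chr3:50443564-50443863, minus strand): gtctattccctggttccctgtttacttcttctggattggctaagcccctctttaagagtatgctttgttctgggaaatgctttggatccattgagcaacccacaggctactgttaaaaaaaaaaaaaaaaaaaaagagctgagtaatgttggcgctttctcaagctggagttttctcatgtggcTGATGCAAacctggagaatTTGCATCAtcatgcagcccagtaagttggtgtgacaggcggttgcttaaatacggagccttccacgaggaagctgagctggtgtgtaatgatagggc
Slc38a7 (chr8:95853442-95853741, minus strand): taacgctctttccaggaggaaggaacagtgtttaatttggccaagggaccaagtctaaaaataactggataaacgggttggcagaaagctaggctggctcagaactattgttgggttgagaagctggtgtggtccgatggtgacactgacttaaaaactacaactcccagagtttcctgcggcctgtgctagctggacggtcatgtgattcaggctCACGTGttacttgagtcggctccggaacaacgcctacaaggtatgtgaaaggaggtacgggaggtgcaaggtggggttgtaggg
Slc5a1 (chr5:33103969-33104268, plus strand): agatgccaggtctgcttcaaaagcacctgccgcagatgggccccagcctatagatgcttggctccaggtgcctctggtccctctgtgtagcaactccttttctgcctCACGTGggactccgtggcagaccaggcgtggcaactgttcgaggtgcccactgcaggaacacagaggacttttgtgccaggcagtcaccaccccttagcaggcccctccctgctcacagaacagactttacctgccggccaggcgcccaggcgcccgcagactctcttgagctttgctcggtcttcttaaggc
Slc1a2 (chr2:102706188-102706487, plus strand): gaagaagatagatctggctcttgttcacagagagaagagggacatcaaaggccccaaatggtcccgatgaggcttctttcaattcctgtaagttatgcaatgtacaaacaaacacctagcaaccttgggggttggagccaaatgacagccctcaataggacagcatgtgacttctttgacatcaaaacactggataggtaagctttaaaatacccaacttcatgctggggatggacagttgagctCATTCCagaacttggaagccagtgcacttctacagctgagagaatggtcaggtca
A match shows only that these letters occur in the window. The E-box stood in 1 gene that was higher and 1 that was lower, and the TEAD core likewise in 1 of 5 higher and 1 of 8 lower genes (Slc1a2 and Slc43a2).

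The heavy chain Slc3a2 (CD98hc) was set apart by its spread between letters. It lay at 12.75 and 12.60 in the A and B yMaSC organoids but at 10.90 in C, and at 12.63 and 12.67 in the A and B MaSC organoids but at 10.57 in C, against 10.95, 11.25 and 10.74 in LD cells. The A and B organoids thus lay above every LD array and the C organoids within or below the LD range. With all arrays the differences were 1.10 ± 0.63 in yMaSC organoids and 0.98 ± 0.63 in MaSC organoids and were not called (limma adjusted p = 0.216 in yMaSC organoids and 0.268 in MaSC organoids). Without both C organoids they were called, at 1.70 in yMaSC organoids (adjusted p = 0.000406) and 1.67 in MaSC organoids (adjusted p = 0.0004). Without the C array of MaSC organoids alone that difference was called as well (adjusted p = 0.0348). With the letter as a replicate block over all arrays the difference in yMaSC organoids was called (1.10, adjusted p = 0.0444). Its partner Slc7a5 (LAT1), the carrier of leucine and other large neutral amino acids, measured 9.48, 9.76 and 9.04 in yMaSC organoids and 9.40, 9.64 and 8.70 in MaSC organoids, against 9.03, 9.54 and 8.86 in LD cells. These groups overlapped, the differences were 0.28 in yMaSC organoids (adjusted p = 0.488) and 0.10 in MaSC organoids (adjusted p = 0.813), and the sign in MaSC organoids depended on the scaling. The other heavy chain, Slc3a1 (rBAT), ranged from 4.0 to 4.5 in yMaSC organoids, 4.14 to 4.48 in MaSC organoids and 3.95 to 4.15 in LD cells, with no call.

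**Figure D4:**
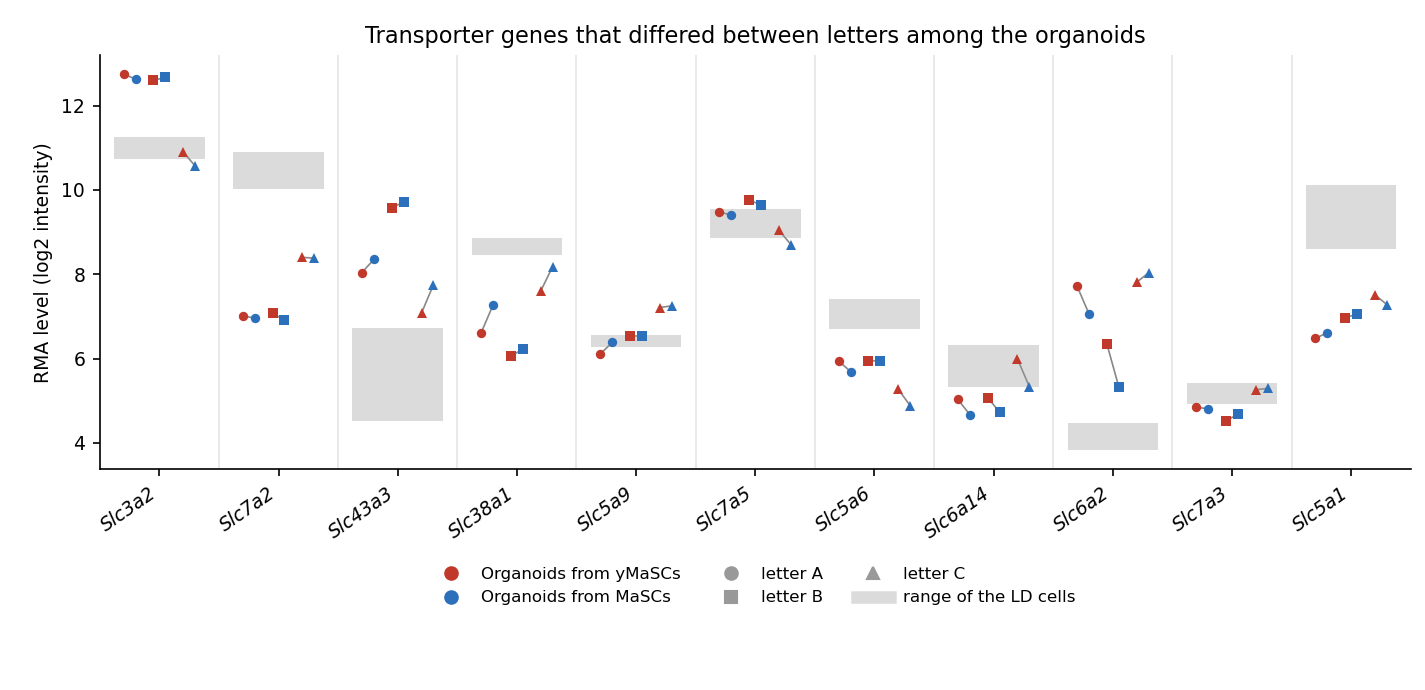
RMA level (y axis, log2 intensity) of the 11 transporter genes that differed between letters among the 6 organoid arrays, ordered by adjusted p; red markers are yMaSC organoids and blue markers MaSC organoids, a grey line joins the organoids of the same letter and the grey block is the range of the 3 LD arrays. For Slc3a2 and Slc7a2 the same-lettered organoids lie close together and the C pair lies apart from the A and B pairs, toward the LD range.

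Over the organoid arrays, 11 of the 80 transporter genes (13.8%) differed between letters (limma F test of the letter with the kind of organoid as covariate, adjusted p under 0.05), against 5.52% of all genes. Slc3a2 had the lowest adjusted p (0.00619), followed by Slc7a2 (0.00666), Slc43a3 (0.0083), Slc38a1 (0.0139), Slc5a9 (0.024) and Slc7a5 (0.0357). The others were Slc5a6, Slc6a14, Slc6a2, Slc7a3 and Slc5a1. In Slc7a2, Slc38a1, Slc5a9, Slc6a14, Slc7a3, Slc5a1 and Slc6a2 both C organoids were the highest of their kind. In the other 4 of the 11 genes (Slc3a2, Slc43a3, Slc7a5 and Slc5a6) both were the lowest. All 4 measured markers of dividing cells also differed between letters, with a summed level of 9.81 in the C array of yMaSC organoids and 9.86 in that of MaSC organoids, 7.05 to 7.57 in the A and B yMaSC organoids, 6.96 to 7.37 in the A and B MaSC organoids and 7.87 to 10.33 in LD cells. Whether the transporter genes moved with cell division in the C organoids was not tested. In Slc6a2, where the C organoids were the highest, the B organoids were the lowest, at 6.35 in yMaSC organoids and 5.33 in MaSC organoids.

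Between yMaSC organoids and MaSC organoids, 0 of the 80 transporter genes passed limma's test, as did 0.0% of all genes, and 1 transporter gene (Slc6a15) and 104 genes overall had an unadjusted p under 0.05. With the letter as a replicate block in the organoids alone, 0 passed, and 6 transporter genes and 596 of all genes had an unadjusted p under 0.05 (lowest adjusted p = 0.964). The median size of the difference was 0.0967 log2 over the transporter genes and 0.07 over all genes. The 95% interval of the difference lay within 1 log2 unit for 67 of the 80 genes (83.8%), against 93.2% of all genes, and for 74, against 17857 of all genes, with the replicate block, so that for these genes the interval held no difference as large as a doubling.

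**Figure D5:**
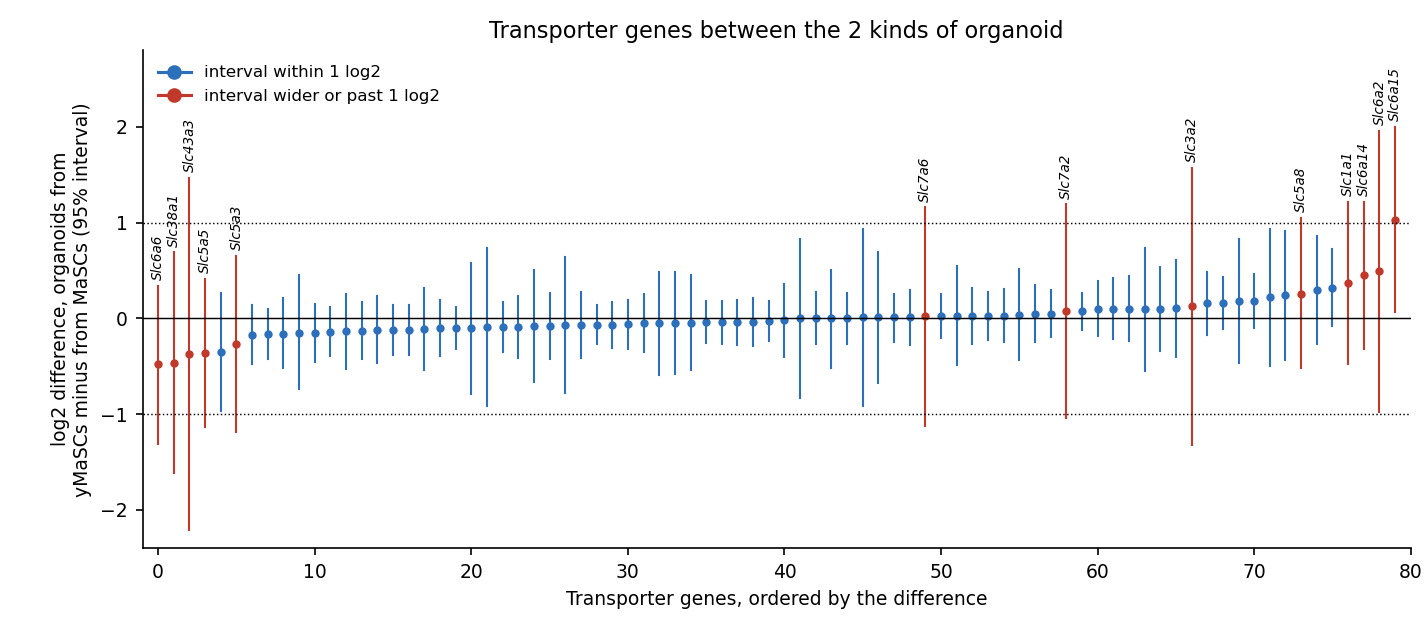
Log2 difference between yMaSC organoids and MaSC organoids (y axis, the first minus the second, with the 95% interval) of all 80 transporter genes, ordered along the x axis by the difference; blue intervals lie within 1 log2 unit (dotted lines) and red ones, with the gene named, do not. Slc6a15, at 1.03, is the only point beyond 1 log2, and 67 intervals lie within the lines.

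For the 13 genes with wider intervals these arrays do not bound the difference so closely. The largest was that of Slc6a15, higher by 1.03 in yMaSC organoids, with an interval from 0.07 to 2.0 and an adjusted p of 1. It came mainly from the C organoids, at 8.61 in yMaSC organoids and 6.11 in MaSC organoids, and without both C arrays it was 0.30. Slc6a2 differed by 0.49 (interval -0.98 to 1.96) and Slc6a6 by -0.48 (-1.31 to 0.34). The sign for Slc6a2 turned without array B of MaSC organoids (-0.25). Slc3a2 differed by 0.13 with an interval from -1.32 to 1.57, and from -0.13 to 0.38 with the replicate block. The interval was narrower for several carriers described above, from -0.27 to 0.86 for Slc2a1, -0.53 to 0.26 for Slc38a2, -0.52 to 0.21 for Slc6a8 and -0.83 to 0.83 for Slc1a5.

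The calls by family stand beside 21.6% higher and 14.3% lower of all genes in yMaSC organoids, and 22.1% and 15.2% in MaSC organoids, and differences between families were not tested. Among the 18 Slc6 genes, 5 were higher and 1 was lower in yMaSC organoids and 4 were higher and 1 lower in MaSC organoids. Among the 11 Slc5 genes 1 was higher and 5 were lower in yMaSC organoids, and 1 was higher and 3 were lower in MaSC organoids. The 11 Slc2 genes had 1 higher and 1 lower in yMaSC organoids, and 1 higher and 2 lower in MaSC organoids. Of the 7 Slc1 genes 1 was higher and 2 were lower in yMaSC organoids, and 1 was higher and 3 were lower in MaSC organoids. Of the 9 Slc38 genes 2 were higher and 2 lower in yMaSC organoids, and 3 were higher and 2 lower in MaSC organoids. Of the 10 light-chain genes of Slc7 only Slc7a11 was called, in the direction of a decrease, and 0 of the 4 proton-coupled Slc36 genes were called. With a common median 5 light-chain genes were lower in yMaSC organoids and 4 in MaSC organoids, as were 2 Slc36 and 4 Slc2 genes in each comparison, and with cyclic loess 0 light-chain genes were called in yMaSC organoids. The higher calls of Slc38 (Slc38a7, Slc38a9 and Slc38a10) were all lost with a common median, whereas Slc6 then had 5 higher and 5 lower genes in yMaSC organoids and 4 higher and 6 lower in MaSC organoids. The 14 genes at or under the lower quartile in all groups included Slc2a2 (GLUT2), the intestinal cystine partner Slc7a9, the GABA and betaine carriers Slc6a11 and Slc6a12 and the glycine carrier Slc6a5, and 1 of the 14 (Slc5a12) was called.

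Genes that act with the carriers were counted from lists drawn up with earlier results of these data known. List counts of the main fit, here and above, stand beside the shares of all genes. These were 21.6% higher and 14.3% lower in yMaSC organoids, and 22.1% and 15.2% in MaSC organoids. Of 14 genes that trap glucose or move GLUT proteins, 3 were higher and 2 lower in yMaSC organoids, and 4 were higher and 4 lower in MaSC organoids. With a common median 7 were lower in each comparison, with cyclic loess 4 in yMaSC organoids and 6 in MaSC organoids, and without LD array B 2 in each. Irs1, an insulin receptor substrate, was higher by 4.02 in yMaSC organoids (limma adjusted p = 5.85e-07) and by 4.26 in MaSC organoids (adjusted p = 3.58e-07). Tbc1d1, which restrains GLUT4 vesicles, was lower by 2.19 in yMaSC organoids and 2.26 in MaSC organoids. Hk2 (hexokinase II) missed the threshold in yMaSC organoids (-1.57, adjusted p = 0.0779) and fell in MaSC organoids (-1.88, adjusted p = 0.0396), as did Arrdc4, a relative of the glucose uptake inhibitor Txnip (-1.83, adjusted p = 0.0537 in yMaSC organoids, and -1.99, adjusted p = 0.0377 in MaSC organoids). Of 8 sodium pump subunits and partners, Fxyd5 was lower by 1.79 in yMaSC organoids and 2.06 in MaSC organoids, and Fxyd3 was higher by 0.85 in yMaSC organoids and 0.93 in MaSC organoids. Of 9 monocarboxylate carriers and chaperones, Slc16a7 (MCT2) was higher by 1.24 in yMaSC organoids and 1.15 in MaSC organoids, and Slc16a6 was lower by 0.69 in yMaSC organoids and 0.93 in MaSC organoids.

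Of 27 genes of the lysosomal machinery that reports amino acids to mTORC1, 11 were higher and 0 lower in each comparison, beside 21.6% of all genes called higher in yMaSC organoids and 22.1% in MaSC organoids. Rragd (RagD) was higher by 2.77 in yMaSC organoids and 2.61 in MaSC organoids, and Sesn3, a sestrin, by 2.17 in yMaSC organoids and 2.44 in MaSC organoids. Rraga (RagA) and 4 of the 5 Ragulator genes (Lamtor1, Lamtor2, Lamtor4 and Lamtor5), which hold the Rag proteins at the lysosome, were among the 11. With a common median 9 were higher and 1 lower in yMaSC organoids and 10 were higher and 0 lower in MaSC organoids. The median difference of the 27 genes was 0.31 in yMaSC organoids and 0.26 in MaSC organoids, beside 0.48 in yMaSC organoids and 0.56 in MaSC organoids for Slc38a9. Of 6 genes of branched-chain amino acid breakdown, 3 were higher in both comparisons (Bckdk, Dbt and Bckdha, by 1.46, 1.27 and 0.70 in yMaSC organoids and 1.57, 1.24 and 0.75 in MaSC organoids) and 0 were lower, except that 1 was lower with a common median.

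Among 20 genes of the amino acid shortage response, 5 were higher and 6 lower in yMaSC organoids and 2 were higher and 7 lower in MaSC organoids, beside all-gene shares of 21.6% higher and 14.3% lower in yMaSC organoids and 22.1% and 15.2% in MaSC organoids. In yMaSC organoids the higher genes numbered 2 with a common median or quantile normalization, 1 with cyclic loess and 3 without LD array B, and in MaSC organoids 1 under each of these. Atf4, the factor that drives it, was lower by 1.17 in yMaSC organoids and 1.40 in MaSC organoids, and Atf3 by 5.11 in yMaSC organoids and 6.05 in MaSC organoids. Phgdh, which opens serine synthesis, was lower by 2.35 in yMaSC organoids and 2.54 in MaSC organoids. Atf3 is also an immediate early gene that dissociation and sorting are known to induce, and the part of the sort in these differences was not tested. Slc38a2, Slc7a11, Slc7a1 and Slc7a5 are among the known targets of the same response, and of these the first 3 were lower in both kinds of organoid. These genes are examples and not a full list of its targets among the transporter genes. Slc7a5 was not called (0.28 in yMaSC organoids and 0.10 in MaSC organoids). Over the 20 listed genes the median difference was 0.28 in yMaSC organoids and 0.04 in MaSC organoids. A change of the response as a whole was not tested.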

How the data were processed

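RNA of 3 arrays per group (Affymetrix, biotinylated cRNA) was measured. The deposited values are log2 intensities that the authors summarised per probe set by RMA (software and version not given in the sources used here). Of 45101 probe sets, 34958 were annotated to 1 gene, 932 to several and 9211 to none; those of 1 gene gave 18194 genes, each by its probe set with the highest mean over 9 arrays. All 80 members matched RefSeq by gene ID. Groups were compared with limma 3.58.1 (lmFit and eBayes, two-sided, R 4.3.3) on all 9 arrays, with the group as the only term and Benjamini-Hochberg adjustment over all genes at 0.05. The procedure was also run on simulated data with independent noise between arrays and few changed genes. That setting held neither the pairing of organoids by letter nor the large share of genes called here. Every printed adjusted p comes from limma. Members, lists and the genes given in full (the 10 largest increases and decreases among those called in both comparisons, the 6 lowest p between letters and 13 chosen by role) were chosen with earlier results of these data known.

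The labels call the arrays biological replicas and do not say what a letter shares between kinds. Deviations of same-lettered arrays from their group means correlated at 0.607, 0.611 and 0.649 between yMaSC and MaSC organoids, at 0.002, 0.030 and -0.046 between yMaSC organoids and LD cells and at 0.012, 0.045 and 0.026 between MaSC organoids and LD cells, so that the letters were taken to pair the organoids only. The number of arrays limits the precision. Alternatives were other scalings, a gene's probe sets averaged, a restriction to genes above the median level, trended, robust or weighted fits, the compared groups alone, the letter as a block, and leaving out single arrays or both C organoids. Protein sequences were not analysed here.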

Additional observations from a re-analysis of the deposited data

How the results depend on the processing

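With a common median, 7 transporter genes were higher and 37 lower in MaSC organoids, and 36 were lower in yMaSC organoids. The share of all genes was not counted for that scaling. With the restriction to genes above the median level, which kept 29 transporter genes, 8 of these were lower in yMaSC organoids. With the compared groups alone 10 transporter genes were lower there. Leaving out single arrays gave 8 to 12 higher and 8 to 14 lower genes in yMaSC organoids (8 lower without their array A or B), and 8 to 12 higher and 10 to 15 lower in MaSC organoids. Of the genes called in each comparison, 13 kept their call under every alternative other than the restriction by level. The letter as a replicate block over all arrays gave 11 higher and 15 lower genes in yMaSC organoids and 13 higher and 17 lower in MaSC organoids.

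A few differences that were not called changed sign. Slc7a5 in MaSC organoids was -0.14 with a common median and -0.11 with cyclic loess, and ranged from -0.09 to 0.38 when single arrays were left out. Slc5a9 in yMaSC organoids was -0.06 with a common median, -0.07 with quantile normalization and -0.10 without both C organoids, and ranged from -0.10 to 0.45 when single arrays were left out. Slc3a1 in yMaSC organoids was -0.05 with a common median. The difference of Slc6a2 between yMaSC and MaSC organoids ranged from -0.25 to 1.10. The common median shifts each organoid array down against LD arrays by construction; for the other alternatives the cause was not tested. Signals at the lower quartile limit what could be compared for 14 genes.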
